A study of Mus musculus with 18 samples.

Results

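Among 42403 regions bound by GATA6 during differentiation of mouse embryonic stem (ES) cells towards primitive endoderm (PrE), 1224 (2.89%) were bound only transiently, already carried pluripotency transcription factors (PTFs) before GATA6 was induced, and lay in enhancers of the primed class. They were selected on 4 classes that the authors had set from measured binding and histone marks, all in the deposited table. GATA6 binding was Transient, PTF peaks (OCT4, SOX2 and ESRRB were profiled) had been called at d0, SOX17 was not bound, and the histone state was that of a primed enhancer. The members are therefore described, not tested, on these 4 measures. By the study's methods the classes rest on peak calls (PTFs, SOX17) and on clustering of signal (GATA6, histone marks). The histone signal was taken from ENCODE data of ES cells, not from libraries of this study. Regions may thus lie just inside or outside a class, and how many do is unknown here. One class away from the 1224 members were 119 regions with early instead of transient GATA6, 10 with late GATA6, 299 also bound by SOX17, 102 that gained PTFs only after induction, and 1495 that never carried PTFs. Within Transient, PTF-bound regions without SOX17, 1237 were active enhancers and 540 were poised enhancers. The 1237 active, the 540 poised and the 1495 PTF-free primed regions are the 3 classes with which the members were compared.

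The series holds 18 MNase-seq libraries of KH2 cells, an ES cell line of C57BL/6 x 129/Sv background with a doxycycline (Dox)-inducible GATA6 transgene tagged with HA, in 6 groups of 3 libraries. The groups were untreated cells (d0) and 5 times of treatment with 1 µg/mL Dox: 8, 16, 24, 48 and 96 h. All were grown on feeder fibroblasts, with serum and LIF in the ES cell medium, so the transgene was switched on in cells cultured as ES cells with feeder cells beside them. By the study's methods the feeders were adsorbed away before the ChIP-seq on which the binding classes rest, and the labels of the MNase-seq libraries name no such step. The deposited table gives 1 row per region and no MNase value that could be tied to a library, so nucleosome signal is not analysed here and library depth is unknown here. Regions are the units below, intervals cover counting error among regions only, and regions that lie close together or share sequence are not independent.

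GATA6 is a zinc-finger factor that binds GATA sequences and drives PrE identity. OCT4 and SOX2 bind DNA side by side on a composite element, with a SOX part (CTTTGTT or similar) followed by an octamer part (ATGCAAAT or similar), and ESRRB is an orphan nuclear receptor that recognises a short extended site (CAAGGTCA). Together they hold ES cells in naive pluripotency. Primed enhancers carry histone marks of enhancers without the acetylation of active ones.

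The members carried the composite element of the PTFs more often than the element of GATA6 itself. Within 100 bp to each side of the summit, the base where GATA6 signal peaked, 1020 of 1224 members (83.3%, 95% Wilson interval 81.1 to 85.3) had a match to the OCT4:SOX2 motif and 763 (62.3%, 59.6 to 65.0) a match to the GATA6 motif. SOX17 matches, which resemble the SOX part, were present in 571 members (46.7%) and ESRRB matches in 224 (18.3%). In 2382 windows of the same length centred 3 kb from 1219 of the member summits, the shares were 41.7% for OCT4:SOX2, 35.3% for GATA6, 29.7% for SOX17 and 12.05% for ESRRB. All 4 motifs were thus more frequent at member summits than beside them, and OCT4:SOX2 by the widest margin in percentage points. Both the GATA6 and the OCT4:SOX2 motif were found in 629 members (51.4%), the OCT4:SOX2 motif without a GATA6 match in 391 (31.9%), the GATA6 motif without an OCT4:SOX2 match in 134 (10.9%) and neither in 70 (5.72%). Only 17 members had none of the 4 motifs in the window and 35 had all of them.

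The strongest matches show what these scores stand for. The 3 members with the highest deposited OCT4:SOX2 scores (21.6, 21.3 and 20.3) held nearly perfect composite elements, shown here on the strand of the motif with the match in capitals, positions being on mm10.
chr15:80619160-80619204, minus strand: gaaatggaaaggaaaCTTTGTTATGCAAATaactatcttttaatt
chr5:131177346-131177390, plus strand: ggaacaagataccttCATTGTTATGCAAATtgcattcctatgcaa
chr11:43952336-43952380, minus strand: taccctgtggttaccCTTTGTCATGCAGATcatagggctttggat
The first lay in an intron of Grap2 and was accessible at d0, the second lay in an intron of Galnt17, and the third was intergenic, 51163 bp from the start of Adra1b. None of them changed on Oct4 knockdown by the authors' class. The first had no GATA6 match in its 794 bp.

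The members with the highest GATA6 scores were of another kind. The region with the top score (15.1) was closed at d0 and decreased on Oct4 knockdown, and this match lay outside its summit window. The next are shown with the GATA6 match in capitals.
chr11:7690019-7690061, plus strand: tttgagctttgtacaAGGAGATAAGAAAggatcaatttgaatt
chr9:101472905-101472947, plus strand: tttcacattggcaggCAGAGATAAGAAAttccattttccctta
The first of these scored 15.1 and was moderately accessible, and the second scored 15.0 and was closed. Both were intergenic, 476076 bp from the start of Igfbp3 and 221108 bp from that of Ppp2r3a.

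The best ESRRB matches are shown in capitals below, with scores of 18.5, 18.5 and 18.1.
chr8:112695855-112695895, minus strand: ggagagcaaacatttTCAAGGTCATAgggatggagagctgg
chr12:100532437-100532477, plus strand: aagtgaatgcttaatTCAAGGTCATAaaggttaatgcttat
chr3:20150271-20150311, plus strand: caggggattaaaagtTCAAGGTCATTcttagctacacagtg
The first, in an intron of Cntnap4, was moderately accessible and was decreased on Oct4 knockdown. The second, 11192 bp from the start of Ttc7b, was closed and unchanged. The third had its summit in a coding exon of Gyg, and it was the single member classed as increased on Oct4 knockdown.

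Compared with the 3 neighbouring classes, the members were the richest in OCT4:SOX2 motifs. The motif was found in 70.2% of active, 75.7% of poised and 47.4% of PTF-free primed regions. The log2 odds ratio of members over each class was 1.09 (95% interval 0.81 to 1.37, Fisher's exact test, adjusted p = 4.14e-14), 0.68 (0.32 to 1.04, adjusted p = 0.000400) and 2.47 (2.21 to 2.73, adjusted p = 2.44e-86). The direction was the pooled one on 20 of 20, 16 of 19 and 20 of 20 chromosomes. PTF-free regions differ from the members by the PTF label itself, and OCT4 and SOX2 bind this motif. The last ratio was thus to be foreseen from the selection. All p-values are two-sided and adjusted by the Benjamini-Hochberg procedure over 34 tables. When only matches at or above the median best score were counted, the difference from poised regions fell to 0.22 (adjusted p = 0.21). In windows 3 kb away the motif was in 41.7% for members, 33.7% for active, 36.6% for poised and 36.5% for PTF-free regions. It was thus also most frequent beside the members, and the ratios were not adjusted for this.

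GATA6 motifs set the members apart from PTF-free primed regions in the other direction. A GATA6 match was found in 83.9% of the PTF-free regions, against 62.3% of members (log2 odds ratio -1.65, -1.91 to -1.39, adjusted p = 1.42e-36, same direction on 20 of 20 chromosomes). Against active regions (54.2%) the members were higher (0.48, 0.25 to 0.71, adjusted p = 9.72e-05), but within classes of d0 accessibility the ratio turned to -0.15 (adjusted p = 0.34). Against poised regions (55.7%) the difference of 0.39 (adjusted p = 0.014) was lost under 3 of the alternatives, with 0.13 to 0.24 and adjusted p = 0.25 to 0.47, and also on leaving out chromosome 8 (0.28, adjusted p = 0.099) or chromosome 12 (0.32, adjusted p = 0.061).

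SOX17 motifs, found although SOX17 was not bound, were more frequent in members than in active (35.7%), poised (36.1%) and PTF-free regions (33.3%), with log2 odds ratios of 0.65, 0.63 and 0.81 (adjusted p = 1.03e-07, 7.61e-05 and 5.16e-12). The ratio to poised regions fell to 0.42 with the stricter score (adjusted p = 0.058). ESRRB motifs were less frequent in members than in active (22.7%, -0.39, adjusted p = 0.011) and PTF-free regions (22.1%, -0.34, adjusted p = 0.023), and the difference from poised regions (15.7%, 0.26, -0.13 to 0.66) was not past the threshold (adjusted p = 0.24), although it was over whole regions (0.54, adjusted p = 0.00096). The ESRRB results depended on how far from the summit a match was counted: within 200 bp of the summit both differences were lost (-0.22 with adjusted p = 0.099 and -0.19 with adjusted p = 0.14), and over whole regions the ratio to PTF-free regions was 0.10 (adjusted p = 0.44). The ratio to PTF-free regions also lost its call without chromosome 10 (-0.28, adjusted p = 0.074). It was lost too without regions of shared sequence (-0.25, adjusted p = 0.15) or without windows over 50% soft-masked (-0.31, adjusted p = 0.085), both defined below.

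**Figure D1:**
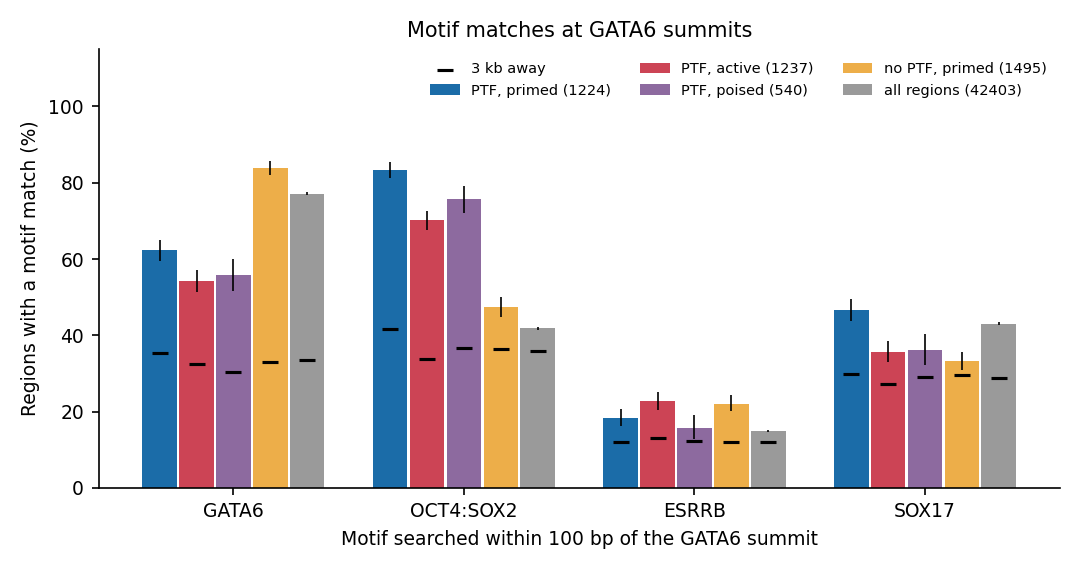
Share of regions (%) with a match to each of 4 motifs within 100 bp of the GATA6 summit, for the 1224 members (PTF, primed), 3 other Transient classes and all 42403 regions; error bars are 95% Wilson intervals and black dashes the share in windows 3 kb away. Members had the highest bar for OCT4:SOX2 (83.3%) while PTF-free primed regions had the highest for GATA6 (83.9%).

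The scores of the best matches were compared as well, without adjustment for region width. A longer region offers more places for a high match. Members had a mean width of 720 bp, against 542 bp in PTF-free, 636 bp in poised and 767 bp in active regions. The mean best OCT4:SOX2 score over whole regions was 11.2 in the 1186 members with a match (SD 3.14), from 5.15 to 21.6, and it exceeded that of PTF-free regions (8.99) by 2.18 (95% interval 1.94 to 2.42), or by 0.76 (0.60 to 0.92) with the mean of all matches in place of the best one. Against active regions the difference was 0.30 (0.04 to 0.56), which turned to -0.21 with the mean of all matches. Against poised regions it was -0.0027 (-0.35 to 0.34), and -0.51 (-0.76 to -0.26) with the mean of all matches. The mean best GATA6 score was 9.92 in 1050 members (SD 2.29), 0.87 below PTF-free regions (10.8; difference -0.87, -1.06 to -0.68) and 0.36 above active regions (0.17 to 0.56). With matches within 100 bp of the summit alone the difference from active regions was 0.12 (-0.15 to 0.39). Per kb of region, members held 4.81 OCT4:SOX2 matches and 3.09 GATA6 matches, against 2.98 and 4.36 in PTF-free regions. Short fixed strings were also more frequent at the summits than beside them. GATAAG, on either strand, was in 24.7% of member windows and in 6.59% of windows 3 kb away, and the octamer ATGCAAAT was in 8.82% and 1.60%. The octamer was also in 7.76% of active, 12.96% of poised (10.4 to 16.1) and 2.94% of PTF-free windows, so its share was higher in poised regions than in members (7.36 to 10.5), a difference that was not tested.

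Across the members with each match, OCT4:SOX2 matches lay closer to the summit than GATA6 matches. These groups of members overlap only in part, and distances were not compared within members that held both. The median distance from the summit to the centre of the best match was 33 bp for OCT4:SOX2, 41 bp for GATA6, 42 bp for SOX17 and 48.5 bp for ESRRB. Of the 1020 OCT4:SOX2 matches 33.1% were centred within 20 bp of the summit, against 26.7% of the 763 GATA6 matches. The other PTF-bound classes had the same order, with 30.9% against 29.8% in active and 39.9% against 28.2% in poised regions. In PTF-free regions the order was the opposite, with 28.9% for OCT4:SOX2 and 36.8% for GATA6. These positions are given as a description.

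**Figure D2:**
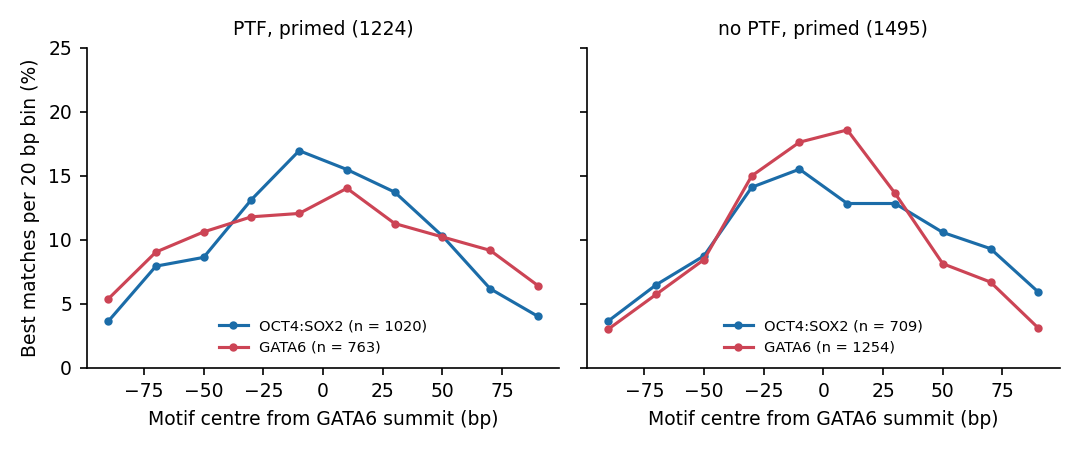
Position of the centre of the best OCT4:SOX2 and GATA6 match relative to the GATA6 summit (bp, 20 bp bins) as a share (%) of the matches, for members (left) and PTF-free primed regions (right). In members the OCT4:SOX2 curve peaked at the summit (17.0% in the bin just left of it) above the GATA6 curve (12.1% there), and in PTF-free regions the GATA6 curve was the higher.

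Before Dox, most members were neither fully open nor closed. The authors classed 912 (74.5%, 72.0 to 76.9) as moderate by ATAC-seq in untreated cells, 200 (16.3%, 14.4 to 18.5) as closed and 112 (9.15%, 7.66 to 10.9) as accessible. Closed regions made up 0.404% of active (5 of 1237), 5.74% of poised and 55.9% of PTF-free primed regions. The log2 odds ratio of members for being closed was 5.59 over active (adjusted p = 4.27e-56), 1.68 over poised (adjusted p = 3.83e-10) and -2.70 over PTF-free regions (adjusted p = 8.65e-103). For being accessible, it was -2.92 over active (43.2%, adjusted p = 3.30e-86), -1.14 over poised (18.1%, adjusted p = 5.71e-07) and 3.41 over PTF-free regions (0.936%, adjusted p = 4.09e-25). The members thus stood between PTF-free primed and active regions.

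The motif make-up of members changed with this class. A GATA6 match at the summit was found in 168 of 200 closed members (84.0%, 78.3 to 88.4), 545 of 912 moderate members (59.8%, 56.5 to 62.9) and 50 of 112 accessible members (44.6%, 35.8 to 53.9). Closed against open members (moderate and accessible) gave a log2 odds ratio of 1.92 (1.35 to 2.49, adjusted p = 1.99e-12), with the same direction on 19 of 20 chromosomes. OCT4:SOX2 matches did not follow this gradient, with 83.0% in closed, 83.0% in moderate and 86.6% in accessible members (-0.04, -0.62 to 0.54, adjusted p = 0.95 for closed against open). ESRRB matches were in 16.0%, 19.5% and 12.5% (-0.28, -0.87 to 0.31, adjusted p = 0.48). The best GATA6 score had a median of 10.2 in closed, 9.44 in moderate and 8.10 in accessible members, while the medians for OCT4:SOX2 were 11.4, 11.1 and 10.96. SOX17 matches, for which no test was set, were in 42.5%, 45.5% and 63.4%.

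Few members were called as changed in GATA6 binding on Oct4 knockdown. The authors compared GATA6 binding between Oct4 knockdown and control cells at 48 h of Dox, in libraries other than those that defined the Transient class, and classed 82 members (6.70%, 5.43 to 8.24) as decreased, 1 as increased and 1141 as unchanged. Over all regions 6.25% were decreased and 8.57% increased, so the share of decreased members was near the background. That background holds every class of GATA6 binding, with 38.4% of regions Transient. Transient regions lose GATA6 as differentiation advances, and whether this limited the calls at 48 h was not tested. The study reported a strong enrichment of PTF-bound regions among those with reduced binding. Its comparison covered all GATA6 regions, with PTFs at d0 or gained later, whatever their GATA6 dynamics, SOX17 binding or histone state. It is thus not a statement about the members. The study found Oct4 mRNA reduced at this time and OCT4 protein nearly absent at a later one. The calls thus concern reduced Oct4, not its absence. The increased class was likewise rare in the other 3 classes, with 2 active (0.162%), 1 poised (0.185%) and 3 PTF-free regions (0.201%), and is not particular to the members (0.0817%). The decreased class was more frequent in members than in PTF-free primed regions (47 of 1495, 3.14%; log2 odds ratio 1.15, 0.62 to 1.67, adjusted p = 3.64e-05), but within bins of region width this was 0.63 (adjusted p = 0.062), and within d0 accessibility classes 1.64 (adjusted p = 4.00e-08). Against active regions (5.42%) the ratio was 0.33 (-0.15 to 0.81, adjusted p = 0.24), 0.59 within width bins (adjusted p = 0.031) and, in the other direction, -0.25 within accessibility classes (-0.79 to 0.29, adjusted p = 0.43). Against poised regions (6.11%) it was 0.14 (-0.46 to 0.74, adjusted p = 0.74), which turned to -0.23 within width bins (-0.86 to 0.39, adjusted p = 0.50), to -0.07 within accessibility classes (adjusted p = 0.89) and to -0.02 without windows over 50% soft-masked (adjusted p = 1).

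Within the members, those classed as decreased in GATA6 binding on Oct4 knockdown were more often closed at d0. Before region width was taken into account, they also more often held a GATA6 motif. Of closed members 24 of 200 were decreased (12%, 8.20 to 17.2), of moderate members 55 of 912 (6.03%, 4.66 to 7.77) and of accessible members 3 of 112 (2.68%, 0.915 to 7.58). Accordingly 58 of 82 decreased members (70.7%) were open at d0 against 966 of 1142 others (84.6%; log2 odds ratio -1.18, -1.91 to -0.46, adjusted p = 0.0046), with that direction on 10 of the 19 chromosomes that could be compared. The GATA6 motif was in 62 of 82 decreased (75.6%) and 701 of 1142 other members (61.4%; 0.96, 0.22 to 1.71, adjusted p = 0.014), a difference that was not past the threshold without windows over 50% soft-masked (0.81, -0.06 to 1.68, adjusted p = 0.092). The OCT4:SOX2 motif was in 84.1% of decreased and 83.3% of other members (0.09, -0.79 to 0.98, adjusted p = 1), and the ESRRB motif in 24.4% and 17.9% (0.57, -0.19 to 1.33, adjusted p = 0.18). Over whole regions the ESRRB difference rose to 0.89 (adjusted p = 0.011).

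Region width, which comes from the GATA6 peak calls, moved with these calls. Decreased members had a median width of 863.5 bp and unchanged members one of 638 bp. When the members were split by width into 4 groups of 306, 1 of the narrowest (248 to 492 bp) was decreased (0.327%), then 14 (4.58%), 27 (8.82%) and 40 of the widest (865 to 2414 bp, 13.1%). The share with a GATA6 motif at the summit was 51.0%, 60.5%, 66.01% and 71.9% in the same groups. Within 10 bins of width the GATA6 motif difference between decreased and other members was 0.55 (adjusted p = 0.20). The widest members were 2414 bp in an intron of Bcl9 (chr3:97268069-97270482, decreased), 2397 bp in an intron of Camkmt (chr17:85101726-85104122, unchanged) and 2265 bp between genes (chr17:69785799-69788063, decreased).

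**Figure D3:**
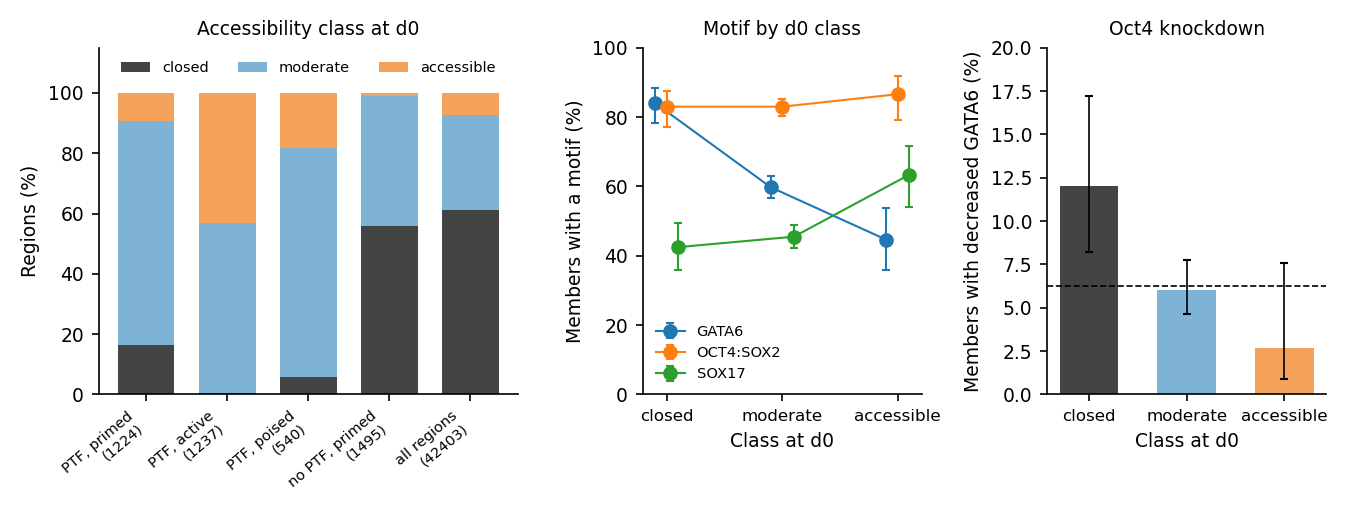
Left, share of regions (%) closed, moderate or accessible at d0 in the members (PTF, primed), the other classes and all regions. Middle, share of members with a motif match at the summit by d0 class, where GATA6 fell from 84.0% to 44.6% and OCT4:SOX2 stayed between 83.0% and 86.6%; right, share of members with decreased GATA6 on Oct4 knockdown by d0 class, with the share over all regions (6.25%) as a dashed line. Error bars are 95% Wilson intervals.

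The 3 decreased members with the highest OCT4:SOX2 scores show both elements inside the summit window, written on the plus strand with the best GATA6, OCT4:SOX2 and, where present, ESRRB match in capitals.
chr4:76011977-76012177: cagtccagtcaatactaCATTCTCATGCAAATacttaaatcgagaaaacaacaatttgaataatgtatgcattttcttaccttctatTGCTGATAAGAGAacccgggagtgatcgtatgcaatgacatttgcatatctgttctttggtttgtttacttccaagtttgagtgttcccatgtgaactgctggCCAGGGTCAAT
chr12:111607982-111608182: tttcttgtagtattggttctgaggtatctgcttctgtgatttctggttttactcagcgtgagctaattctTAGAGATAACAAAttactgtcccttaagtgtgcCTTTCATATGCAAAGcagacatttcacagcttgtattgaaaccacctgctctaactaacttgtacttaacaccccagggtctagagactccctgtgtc
chr13:66945259-66945459: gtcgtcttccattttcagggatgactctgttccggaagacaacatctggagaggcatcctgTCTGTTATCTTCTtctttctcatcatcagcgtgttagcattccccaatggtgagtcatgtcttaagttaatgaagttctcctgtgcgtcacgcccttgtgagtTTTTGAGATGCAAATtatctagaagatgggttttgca
The first summit lay in a coding exon of Ptprd, a receptor tyrosine phosphatase, in a region of 1384 bp that was closed at d0, with scores of 19.9 for OCT4:SOX2, 12.03 for GATA6 and 7.11 for ESRRB. The second lay in an intron of the kinase gene Mark3 (17.8 and 11.8), with the GATA6 match 24 bp left and the OCT4:SOX2 match 10 bp right of the summit. The third lay in a coding exon of Ptdss1, a phosphatidylserine synthase gene (17.6 and 11.4). The last 2 were moderately accessible.

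A part of the members shared sequence with one another. In the reference sequence, 280 member windows (22.9%, 20.6 to 25.3) were soft-masked (marked as repeats) over more than 50% of their length, against 11.3% of active, 6.48% of poised, 13.8% of PTF-free primed and 10.3% of all regions. Of the members 261 (21.3%) shared at least 20 strings of 16 bases with the window of another GATA6 region, against 8.08%, 3.70%, 10.4% and 8.14%. Joining members by such shared strings gave 16 sets with 203 members, the largest with 79 and 60. A member joined a set by sharing with any member of it, so members of a set need not all share strings directly. The joining was chosen after the sequences had been seen, so the sets are described without a test, and the members within a set are not independent. The authors kept reads with a mapping quality over 30, and how many reads regions of shared sequence lost in that step was not analysed here.

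In the set of 60, on 18 chromosomes, 40 members carried a GATA6 and an OCT4:SOX2 motif in a fixed arrangement. When the OCT4:SOX2 motif was read forward, a GATA6 motif on the opposite strand was centred 29 bp before it in 41 members (6.52% of the 629 with both motifs), 40 of them in this set. The next most frequent spacing was found in 8 members. The same arrangement was present in 203 of all 42403 regions (0.479%), in 3.35% of members and in 0.566%, 0.556% and 0.468% of the active, poised and PTF-free classes. The OCT4:SOX2 match in 30 of the 41 members was 1 and the same sequence. The stretch between the motifs is shown for the first 3 members (by chromosome and position) that were decreased on Oct4 knockdown and the first 3 that were unchanged, on the strand of the OCT4:SOX2 motif. The first capitals are the GATA6 motif, which reads as its reverse complement here, and the second capitals the OCT4:SOX2 motif.
chr2:79332331-79332389, plus strand, decreased: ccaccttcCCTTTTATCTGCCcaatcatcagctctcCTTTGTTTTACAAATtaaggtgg
chr2:87393358-87393416, minus strand, decreased: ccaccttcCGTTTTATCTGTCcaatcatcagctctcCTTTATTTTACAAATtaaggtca
chr5:89355135-89355193, minus strand, decreased: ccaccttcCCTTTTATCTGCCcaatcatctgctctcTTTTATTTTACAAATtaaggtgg
chr1:10800555-10800613, minus strand, unchanged: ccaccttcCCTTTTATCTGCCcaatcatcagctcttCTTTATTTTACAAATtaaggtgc
chr1:14421346-14421404, minus strand, unchanged: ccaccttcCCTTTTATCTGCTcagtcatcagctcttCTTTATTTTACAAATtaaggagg
chr1:130778926-130778984, plus strand, unchanged: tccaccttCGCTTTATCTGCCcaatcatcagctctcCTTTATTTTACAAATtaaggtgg
These copies differed at few bases, inside as well as outside the motifs. The most frequent OCT4:SOX2 match of all members, CTTTATTTTACAAAT, occurred in 42 members and 198 regions, with a low score of 6.93, and the most frequent GATA6 match, GGCAGATAAAAGG, in 20 members and 106 regions, with a score of 10.2.

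**Figure D4:**
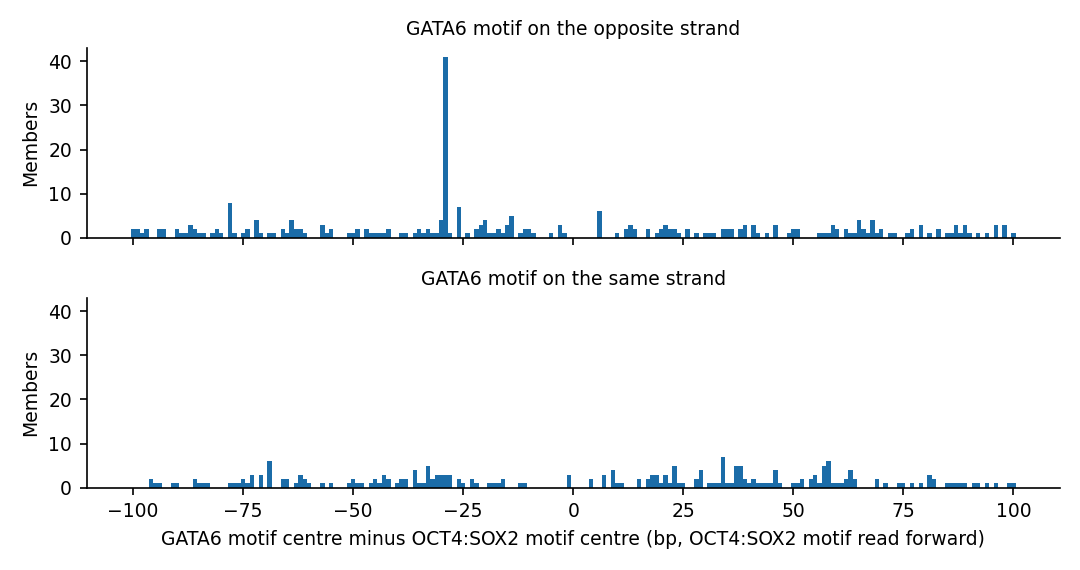
Number of members by the distance (bp) from the centre of the best OCT4:SOX2 motif, read forward, to the centre of the best GATA6 motif, for GATA6 motifs on the opposite (top) and same strand (bottom), 629 members with both motifs (distances up to 100 bp drawn). A single spike of 41 members stood at -29 bp on the opposite strand, and the next highest bar held 8 members.

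The set of 79, on 20 chromosomes, held another kind of element. Of its members 68 had an OCT4:SOX2 motif, 58 a SOX17 motif and 40 a GATA6 motif, and none had the arrangement above. The most frequent OCT4:SOX2 match in it, in capitals, is shown with its flanks in the first 4 copies.
chr1:17932336-17932394, plus strand: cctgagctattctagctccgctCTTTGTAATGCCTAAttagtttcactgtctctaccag
chr1:18268954-18269012, minus strand: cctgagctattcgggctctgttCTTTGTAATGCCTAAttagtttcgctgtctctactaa
chr2:107515542-107515600, minus strand: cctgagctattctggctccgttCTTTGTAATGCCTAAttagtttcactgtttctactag
chr4:22144957-22145015, minus strand: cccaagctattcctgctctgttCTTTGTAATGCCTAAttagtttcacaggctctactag
This sequence scored 9.14 and occurred in 23 members and 62 regions.

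The sets had unlike values in both deposited readouts, given here without a test. In the set of 79, 28 members were accessible at d0 (35.4%), 50 moderate and 1 closed, and none was decreased on Oct4 knockdown (0 of 79, 95% Wilson interval up to 4.64%). In the set of 60, 1 was accessible, 41 moderate and 18 closed (30%), and 10 were decreased (16.7%, 9.31 to 28.0). Of the other 1085 members 83 were accessible (7.65%), 181 closed (16.7%) and 72 decreased (6.64%, 5.30 to 8.28). The set of 79 thus held 28 of the 112 accessible members (25%), and the set of 60 held 18 of the 200 closed (9%) and 10 of the 82 decreased members (12.2%). The third set, with 18 members, had 9 with an ESRRB motif, 13 moderate, 5 accessible and 2 decreased. Among members in no set the share with a GATA6 motif was 82.0% in closed, 60.5% in moderate and 45.2% in accessible members, so the gradient was present outside the sets. The share with a SOX17 motif was 47.2%, 45.1% and 52.1% there.

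**Figure D5:**
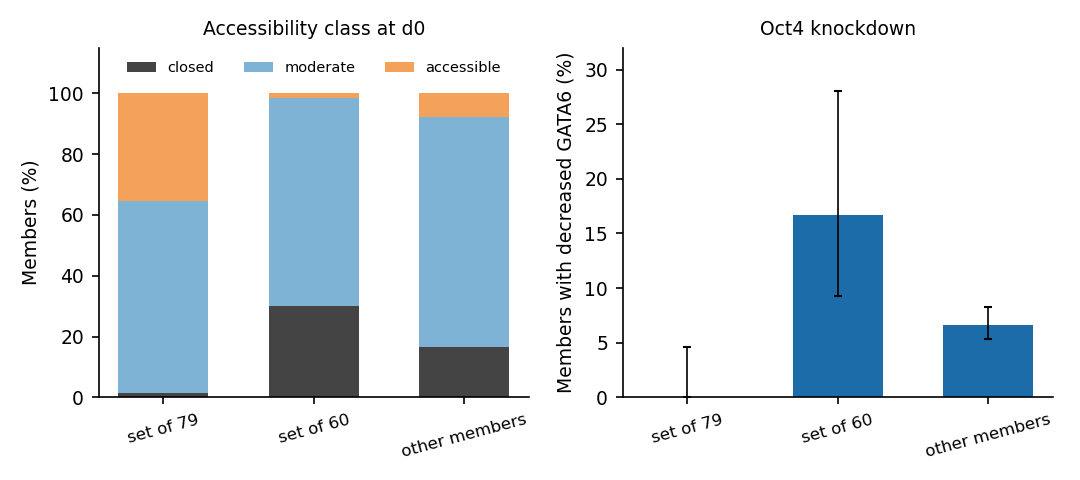
Left, share (%) of members closed, moderate and accessible at d0 in the set of 79, the set of 60 and the other 1085 members. Right, share (%) with decreased GATA6 on Oct4 knockdown, with 95% Wilson intervals: 0% in the set of 79, 16.7% in the set of 60 and 6.64% in the others.

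Members often lay far from protein-coding starts. The median distance from the summit to the nearest protein-coding start was 66296.5 bp, and for 488 members (39.9%) it was over 100 kb, against 18.4% of active, 29.3% of poised and 21.3% of PTF-free primed regions. Only 46 (3.76%) lay within 1 kb of a transcript start, fewer than in active (9.78%, log2 odds ratio -1.47, adjusted p = 5.20e-09), poised (10.6%, -1.60, adjusted p = 2.70e-07) and PTF-free regions (6.62%, -0.86, adjusted p = 0.0018). The last difference was -1.10 with adjusted p = 0.058 where protein-coding transcripts alone were counted. Summits were intergenic in 620 members (50.7%), intronic in 568 (46.4%) and exonic in 36 (2.94%). Introns held 61.3% of PTF-free regions, above the members (-0.87, -1.09 to -0.65, adjusted p = 5.02e-14), while the differences from active (-0.21, -0.43 to 0.02, adjusted p = 0.11) and poised regions (0.02, -0.28 to 0.31, adjusted p = 0.95) were not past the threshold. Member windows had a GC content of 43.0% on average, with differences of -3.76, -3.53 and -3.39 percentage points from active, poised and PTF-free regions (-4.14 to -3.38 for active). They held 1.31 CpG per window against 2.15, 2.62 and 1.91. Mean width was 720 bp (SD 312), from 248 to 2414 bp, against 767, 636 and 542 bp. Members were found on every chromosome except Y, from 36 on chromosome 19 to 93 on chromosome 2, and made up between 1.68% of the regions on chromosome 8 and 4.24% on chromosome 15. Among the genes that were most often the nearest protein-coding gene were Adgrl3, Cyp7b1 and Dpp6, with 4 members each.

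Lists of genes of the pathways concerned were set beside the members. Of 36 genes of naive pluripotency, 5 had a member within 100 kb of their start, and 5 members (0.408%) lay in such a stretch against 0.891% of all regions. Of 29 PrE genes 1 had a member (0.0817% of members against 0.844%), of 14 formative epiblast genes 2 (0.163% against 0.210%) and of 23 genes of FGF and ERK signalling 4 (0.327% against 0.413%). By nearest protein-coding gene, 9 members (0.735%, against 0.915% of all regions) belonged to the naive list, 4 (0.327% against 0.679%) to the PrE list, 2 (0.163% against 0.113%) to the formative list and 5 (0.408% against 0.318%) to the FGF and ERK list. The latter 2 lists were thus below the share of all regions by distance and above it by nearest gene. These shares are descriptions, without a test.

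The naive pluripotency genes with a member were Prdm14, Mycn, L1td1, Klf4 and Jarid2. For Prdm14, a repressor of differentiation, the member (chr1:13131545-13132365) was 4969 bp upstream of the start, and its best scores were 12.2 for GATA6, 10.6 for OCT4:SOX2 and 17.9 for ESRRB, of which only the GATA6 match lay in the summit window. For Mycn, which encodes a MYC family factor, it was 5033 bp upstream (chr12:12946679-12947087), with weaker scores of 8.41, 5.45 and 6.07. The members of L1td1, an RNA-binding protein gene of pluripotent cells, and of Klf4, a core factor of naive cells, lay 20569 and 77196 bp downstream of the starts. The Klf4 member (chr4:55454459-55455624) was closed at d0, was in an intron of the long non-coding RNA gene Gm12510 and had scores of 9.76 for GATA6, 12.6 for OCT4:SOX2 and 16.6 for ESRRB. The Jarid2 member lay in an intron of that gene, which encodes a cofactor of Polycomb repressive complexes, 89013 bp from the start. All 5 were classed as unchanged on Oct4 knockdown.

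Among the other lists, the only PrE gene with a member was Sox7, a SOX factor of the endoderm, with the member 7014 bp upstream (chr14:63936168-63937095). It was moderately accessible at d0 and held a GATA6 match of 11.8 and an OCT4:SOX2 match of 17.0, centred 6 bp left and 27 bp right of the summit. The formative factors Foxd3 and Otx2 had members 19067 bp downstream and 42888 bp upstream, in introns of the non-coding RNA genes Gm12682 and Otx2os1. The members near the feedback inhibitors of receptor tyrosine kinase and ERK signalling lay 8166 bp upstream of Spry2, 17319 bp downstream of Spry1 and 26173 bp downstream of Dusp6. The summit windows near Prdm14, Mycn, Sox7 and Spry2 are shown on the plus strand, with the best GATA6, OCT4:SOX2 and ESRRB matches in capitals.
Prdm14, chr1:13132032-13132232 (GATA6): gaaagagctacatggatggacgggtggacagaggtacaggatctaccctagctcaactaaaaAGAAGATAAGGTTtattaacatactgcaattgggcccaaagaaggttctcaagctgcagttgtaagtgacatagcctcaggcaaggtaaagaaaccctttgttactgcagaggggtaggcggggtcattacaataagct
Mycn, chr12:12946847-12947047 (ESRRB, then OCT4:SOX2): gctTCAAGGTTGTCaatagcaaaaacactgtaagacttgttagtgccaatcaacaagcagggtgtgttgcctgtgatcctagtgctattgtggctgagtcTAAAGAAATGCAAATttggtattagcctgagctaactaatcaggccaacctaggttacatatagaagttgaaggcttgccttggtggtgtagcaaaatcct
Sox7, chr14:63936559-63936759 (GATA6, OCT4:SOX2, ESRRB): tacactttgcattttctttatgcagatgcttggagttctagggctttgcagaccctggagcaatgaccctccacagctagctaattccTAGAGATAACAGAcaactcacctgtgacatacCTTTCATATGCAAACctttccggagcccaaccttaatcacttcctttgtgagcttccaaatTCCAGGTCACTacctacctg
Spry2, chr14:105904885-105905085 (ESRRB): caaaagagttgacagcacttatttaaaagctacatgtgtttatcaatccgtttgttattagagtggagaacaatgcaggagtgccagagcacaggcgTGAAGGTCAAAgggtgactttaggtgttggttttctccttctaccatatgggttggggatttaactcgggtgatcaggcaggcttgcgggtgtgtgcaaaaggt
The Sox7 window and the Mark3 window above both held a GATA6 match followed by an OCT4:SOX2 match on the same strand, a likeness noticed after their values were seen. The Spry2 window held an ESRRB match of 15.1 beside its summit and no GATA6 or OCT4:SOX2 match.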

How the data were processed

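The measured material was MNase-seq of KH2 cells in 18 libraries. Per the labels, the submitters' processing notes name bcl2fastq, cutadapt, Bowtie2, SAMtools and the mm10 build. The 1 deposited table has 105 columns; 34 were read, and 71 were not, 59 with signal of assays that match no library here and 12 with groups of motif values. Per the study's methods, the authors took GATA6 peaks that MACS2 called both in merged libraries and in each of them, and set the classes of GATA6, PTF and SOX17 binding, accessibility, histone state and Oct4 knockdown response (their DESeq2 test). The deposited motif score is the FIMO log-odds score of a JASPAR matrix, without normalization, and the deposited hits are numbers per region.

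The scoring matrices were recovered from the deposited best matches by least squares (largest residual 5.20e-05), and rescanned regions gave the deposited presence in 98.5% to 99.6% of regions. Windows reaching 100 bp to each side of the summit were then scanned on GRCm38 and summits annotated with GENCODE release M21. Motif matches use the lowest deposited score of each matrix as their limit. Odds ratios have Woolf intervals and two-sided Fisher's exact tests on numbers of regions, with Mantel-Haenszel ratios within strata. Differences of means have 95% normal intervals. The odds ratios and their intervals were tested on simulated data first, and the differences of means were not. The members and gene lists were chosen with earlier results of these data known. Members named in the text were the 3 with the highest OCT4:SOX2, ESRRB and GATA6 scores, the 3 decreased with the highest OCT4:SOX2 scores, the 3 widest and the member nearest each listed gene, of which some are not reported here. Joining windows by shared sequence, and leaving such regions or soft-masked windows out, was added after seeing the data. Python 3.11.15, scipy 1.17.1, numpy 2.4.6, pandas 2.3.3, pysam and matplotlib 3.10.9 were used. Library depth is unknown here, so no depth-based precision is given.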

Additional observations from a re-analysis of the deposited data

How the results depend on the processing

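No paired analysis was possible because no library enters any test; the replicate numbers label libraries, and regions are the units. Values below are log2 odds ratios unless called differences. Counting matches in whole regions gave 0.54 for ESRRB against poised (now past the threshold), 0.10 against PTF-free primed regions (turned) and 0.89 for decreased against other members, and turned ESRRB in closed members to 0.015 and OCT4:SOX2 in decreased members to -0.26. Within 200 bp of the summit ESRRB gave -0.22 (active), 0.37 (poised, now past the threshold) and -0.19 (PTF-free). With scores at or above the median, the differences from poised regions fell to 0.24 (GATA6), 0.22 (OCT4:SOX2) and 0.42 (SOX17), all under the threshold. Within width bins the values were 0.14 for GATA6 against poised, 0.59 and 0.63 for the decreased class against active (now past the threshold) and PTF-free regions (lost), 0.55 for GATA6 motifs in decreased members (lost), and, turned, -0.23 for the decreased class against poised regions and 0.0025 for OCT4:SOX2 in closed members. Within d0 accessibility classes GATA6 turned to -0.15 against active and fell to 0.13 against poised, and the decreased class turned to -0.25 (active) and -0.074 (poised). Protein-coding transcripts alone gave -1.10 for starts within 1 kb against PTF-free regions (lost). Without regions of shared sequence 31 of 34 results kept their direction and side of the threshold, the exceptions being ESRRB against PTF-free regions (-0.25, lost), introns against active (0.020, turned) and ESRRB in closed members (0.026, turned). Without soft-masked windows 30 did, the exceptions being ESRRB against PTF-free regions (-0.31, lost), GATA6 motifs in decreased members (0.81, lost), and the turned values of the decreased class against poised (-0.021) and ESRRB in closed members (0.092). Leaving out each of 20 chromosomes, values ranged from 0.28 to 0.47 for GATA6 against poised and from -0.39 to -0.28 for ESRRB against PTF-free regions, and no other call changed. Direction turned, with no call, on leaving out 1 or more chromosomes for introns against poised (-0.050 to 0.0996), OCT4:SOX2 in closed members (-0.21 to 0.11) and OCT4:SOX2 in decreased members (-0.029 to 0.29). Differences of mean scores moved to 0.12 (GATA6) and 0.40 (SOX17) against active with best matches within 100 bp of the summit alone. With the mean of all matches they moved to -0.21 (active, turned), -0.51 (poised) and 0.76 (PTF-free) for OCT4:SOX2 and to 0.095 (PTF-free) for SOX17. The causes were not tested. Library depth, and what it limits, is unknown here.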
